A study of Mus musculus with 36 samples.

Results

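The homeobox and bHLH genes examined here encode 41 transcription factors of brain patterning and neurogenesis, out of 22271 protein-coding genes on mouse chromosomes 1 to 19, X and Y (mm9, GENCODE vM1). They were chosen by name, and peaks of 9 ChIP-seq lists were counted around them in 2 windows: within 1 kb of a transcription start, and within 50 kb of the gene body. They comprise 4 POU class III genes, 3 LIM homeobox genes, 4 OTX and EMX genes, the sine oculis type genes Six3 and Six6, 4 proneural bHLH genes, 4 ZIC genes, 4 NK homeobox genes, 6 DLX and GSX genes, 5 TALE homeobox genes (IRX and MEIS), 2 MSX genes and 3 PAX genes. The ZIC genes encode zinc finger proteins and are included as neural regulators, so they are neither homeobox nor bHLH genes. A further 39 neural factor genes (such as Olig2 and Pax6) served as a comparison list.

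ChIP-seq maps the DNA that is precipitated together with a protein. The lists come from wild-type (WT) R1 mouse embryonic stem cells (ESCs), grown in serum and LIF with the 2i inhibitors, and from neural progenitor cells (NPCs) that were derived from the R1 ESCs in vitro and kept in NPC medium. MBD3 and CHD4 were profiled in ESCs (2 replicates each) and in NPCs (1 list each), SIN3A in WT ESCs once without and once with spike-in chromatin, and GFP in ESCs labelled ZFP296-BAC R1, whose tagged protein the study's methods instead describe as a construct in KH2 ESCs. Of 36 samples in the series, the 27 others (inputs, histone marks, knockout clones and further spike-in libraries) were not analysed here, and none of the 9 lists holds expression values with which the identity of the cells could be checked.

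MBD3 and CHD4 are subunits of the NuRD complex, which couples nucleosome remodelling to histone deacetylation. SIN3A is the scaffold of another histone deacetylase complex. ZFP296 is a zinc finger protein expressed in ESCs. The 41 genes are mostly silent or low in pluripotent cells and are switched on in different regions of the neural tube: OTX, EMX and LHX2 in the anterior brain and eye, GSX and DLX in the ventral forebrain, NK2 and NK6 factors in the ventral neural tube, MSX, ZIC and PAX3 dorsally, and the neurogenins where progenitors become neurons. Their promoters are typically rich in CpG and are known targets of Polycomb repression in ESCs.

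The lists held from 2304 peaks (NPC MBD3) to 29974 peaks (ESC CHD4 replicate 2). All 29974 peak names of the latter carry the words of a Zfp219 BAC, whereas the sample is labelled WT. Replicates of a factor differed in length, with 2344 and 7551 peaks for ESC MBD3 and 11712 peaks for ESC CHD4 replicate 1, and this gap is the error against which counts around the genes have to be read. Read counts per peak were not used here, so presence of a peak was compared and not the level of binding. Each peak carries a −log10 value from the authors' peak caller, called its value below and used within a list. Genes are not replicates, and with 1 or 2 lists per group no test of a difference between lists was run.

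In NPCs, 0 of the 41 genes had a CHD4 peak within 1 kb of a start, where 13.2% of all protein-coding genes had one. An MBD3 peak lay there at 0 of the 41 genes too, but 2.5% of all genes had one, a share too small to be read from 41 genes. In ESCs the same window was occupied at 18 of the 41 genes (43.9%) in at least 1 of the 7 ESC lists, against 50.4% of all genes (52.3% with the NPC lists added). MBD3 marked 1 start in replicate 1 (2.44% of the genes, against 2.36% of all genes) and 3 starts in replicate 2 (7.32% against 3.44%). CHD4 marked 4 starts in replicate 1 (9.76% against 8.49%) and 13 in replicate 2 (31.7% against 22.9%). For MBD3 the shares of all genes, 2.36% and 3.44%, were too small to be read from 41 genes. CHD4 lay at about as many of these starts as of starts in general in the shorter list. In the longer list its share was higher, but nearly level among genes with CpG-rich promoters (35.7% against 34.4%, described below).

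ZFP296 peaks lay at 2 starts, those of Zic2 and Irx2, or 4.88% of the genes against 2.87% of all genes. SIN3A peaks lay at 10 starts in either preparation, which is 24.4% of the genes against 41.3% of all genes without spike-in and 33.8% with spike-in. The plot of shares of genes with a peak shows that SIN3A and both NPC lists are the ones in which the neural genes lay below all genes in both windows.

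**Figure D1:**
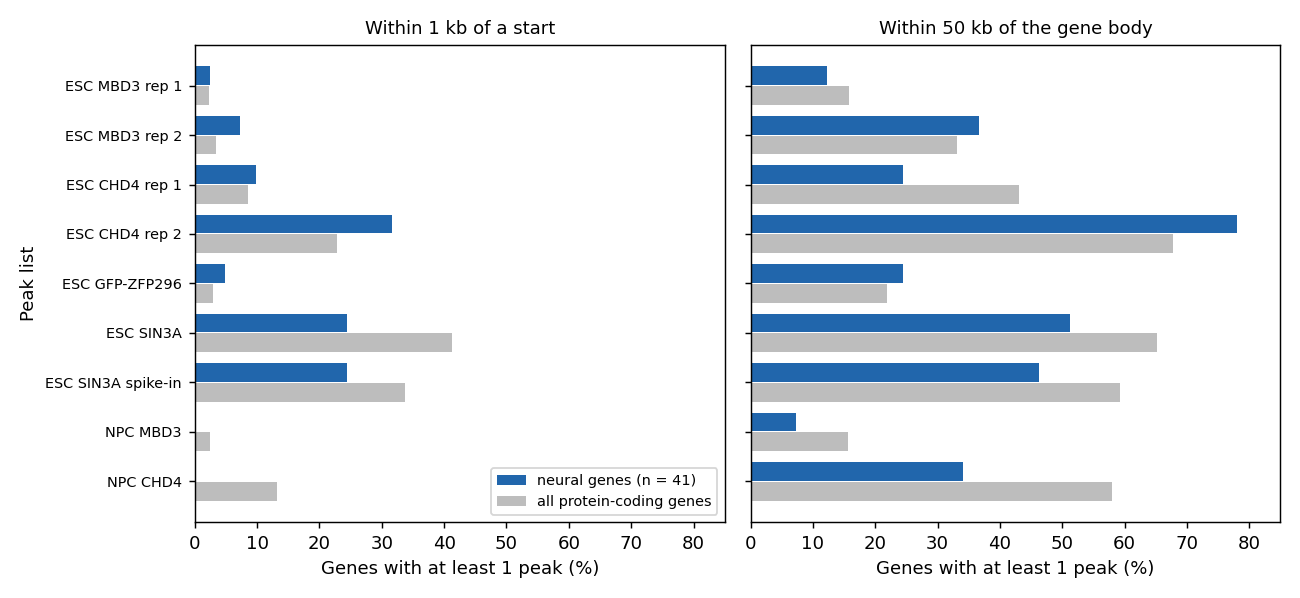
Share of genes with at least 1 peak (%, x axis) in each of the 9 peak lists (y axis), for the 41 neural genes (blue bars) and all 22271 protein-coding genes (grey bars), within 1 kb of a start (left) and within 50 kb of the gene body (right). At the starts the NPC bars of the neural genes are at 0, and within 50 kb the NPC CHD4 bar stands at 34.1% against 58.0%.

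Within 50 kb of the gene body, 34 of the 41 genes (82.9%) had a peak in at least 1 list, against 81.1% of all genes. All 34 had one in ESCs (76.9% of all genes) and 14 of them (34.1%) also in NPCs (58.4% of all genes). MBD3 peaks lay near 5 genes in ESC replicate 1 (12.2% against 15.8% of all genes), near 15 in ESC replicate 2 (36.6% against 33.1%) and near 3 in NPCs (7.32% against 15.7%). CHD4 peaks lay near 10 genes in ESC replicate 1 (24.4% against 43.0%), near 32 in ESC replicate 2 (78.0% against 67.7%) and near 14 in NPCs (34.1% against 58.0%). The ESC CHD4 replicates thus fell on opposite sides of the share over all genes. The higher share in replicate 2 was kept with peaks of a value of at least 6 (73.2% against 64.6%). It was not seen under the following stricter cuts, which change both list length and peak values. With the 2304 highest peaks of each list, CHD4 lay near 12.2% of the genes in replicate 1 (15.9% of all genes) and 7.32% in replicate 2 (18.5%). With peaks of a value of at least 10, replicate 2 reached 41.5% (47.3%). The cause of this change was not tested.

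ZFP296 peaks lay within 50 kb of 10 genes, 24.4% against 21.9% of all genes. SIN3A peaks lay within 50 kb of 21 genes in the preparation without spike-in (51.2% against 65.2%) and of 19 in the other (46.3% against 59.2%). Among the 39 other neural factor genes the corresponding numbers were 10 genes (25.6%) for ZFP296 and 16 (41.0%) in each SIN3A list, 16 genes (41.0%) for NPC CHD4 and 6 (15.4%) for NPC MBD3, and 4 of these 39 genes (10.3%) carried an NPC CHD4 peak at a start.

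The neural genes differ from other genes in features that bear on such counts. Their median length was 5492 bp against 15488 bp for all genes, and a median of 0 other protein-coding genes started within their 50 kb window, against 2.0 for all genes. Their promoters (250 bp before to 50 bp after the start) were richer in CpG, with a median observed over expected ratio of 0.748 against 0.535, and 28 of 41 (68.3%) reached a ratio of 0.6, against 45.2% of all genes.

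The counts were therefore repeated against the 10068 genes with such CpG-rich promoters, of which 28 are neural. At the starts, NPC MBD3 and NPC CHD4 stayed at 0 genes, against 3.94% and 20.3% of CpG-rich genes, the former too small to be read from 28 genes. Each SIN3A list marked 8 of the 28 (28.6%), against 71.9% and 60.1%. ESC MBD3 marked 1 and 3 (3.57% and 10.7%, against 3.5% and 4.42%), ESC CHD4 3 and 10 (10.7% and 35.7%, against 12.9% and 34.4%) and ZFP296 2 (7.14% against 4.09%). Within 50 kb, NPC CHD4 lay near 6 genes (21.4% against 71.7%) and NPC MBD3 near 2 (7.14% against 20%). SIN3A lay near 13 and 12 of the 28 (46.4% and 42.9%, against 87.3% and 80.6%). ESC MBD3 lay near 2 and 10 (7.14% and 35.7%, against 21.0% and 41.5%), ESC CHD4 near 7 and 21 (25.0% and 75%, against 55.3% and 83.6%) and ZFP296 near 6 (21.4% against 28.0%). Against this CpG-rich background all 9 lists reached a smaller share of the neural genes within 50 kb. This includes MBD3 and CHD4 of ESC replicate 2 and ZFP296, which lay above the share over all genes. With at most 2 other starts in the window, those lists lay near 31.6%, 76.3% and 21.1% of the neural genes, against 31.0%, 61.0% and 17.7%. For genes of at most 20 kb the shares were 33.3%, 75.8% and 27.3%, against 27.9%, 62.0% and 19.9%. The other lists stayed below in both restrictions, which were chosen after seeing the data. Sites of both replicates or preparations lay at CpG-rich starts of 0 neural genes for MBD3 (1.01% of CpG-rich genes, a share too small to be read from 28 genes), 3 for CHD4 (10.7% against 8.83%) and 4 for SIN3A (14.3% against 52.1%). Within 50 kb they lay near 1 gene for MBD3 (3.57% against 13.3%), 7 for CHD4 (25.0% against 47.5%) and 8 for SIN3A (28.6% against 74.4%).

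A peak inside a 50 kb window can lie nearer to a neighbour's start than to that of the neural gene. Counting a gene where at least 1 peak within 50 kb had the gene's own start as its nearest, ZFP296 reached 10 of the 41 genes (24.4%) against 9.11% of all genes, ESC MBD3 4 (9.76% against 6.66%) and 10 (24.4% against 16.0%) in replicates 1 and 2, and ESC CHD4 8 (19.5% against 21.1%) and 27 (65.9% against 42.6%). SIN3A reached 18 genes (43.9% against 42.1%) and 16 genes (39.0% against 34.1%), so its shortfall in the plain 50 kb count was not seen in this count. In NPCs the shares stayed below those of all genes, with 8 genes for CHD4 (19.5% against 32.1%) and 2 for MBD3 (4.88% against 6.79%). Genes with few neighbours have more sequence nearest to them, which this count does not correct for.

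**Figure D2:**
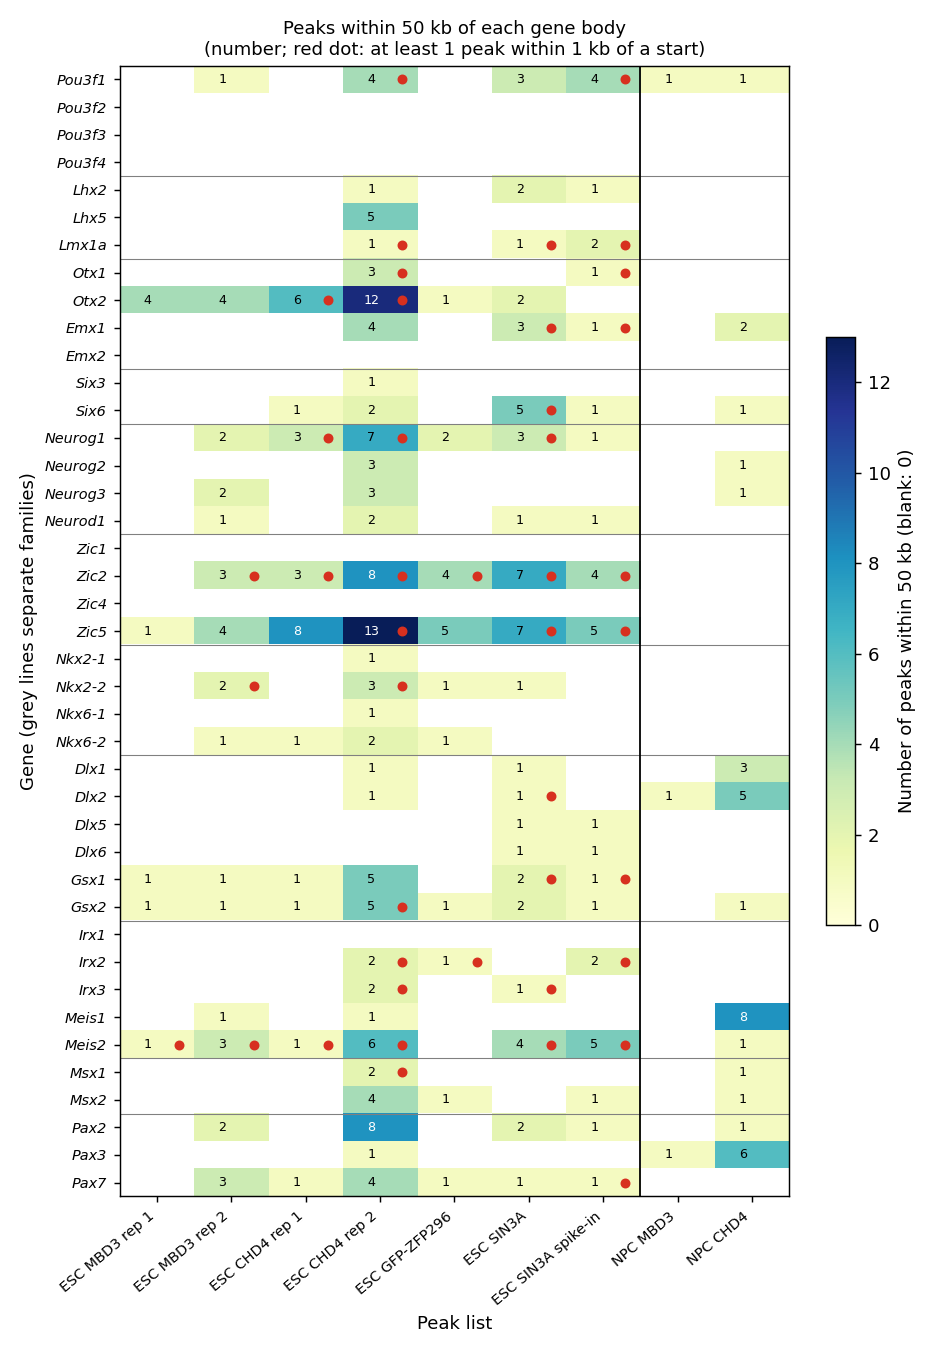
Number of peaks within 50 kb of the gene body (printed and as colour, blank for 0) for each of the 41 genes (y axis, grey lines between families) in the 7 ESC lists and, right of the black line, the 2 NPC lists (x axis), with a red dot where at least 1 peak lies within 1 kb of a start. Peaks in windows shared by Zic2 and Zic5, Dlx1 and Dlx2, or Dlx5 and Dlx6 are counted for both genes, and the NPC columns have no red dot.

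Peak numbers were very uneven among the genes. Summed over the 9 lists they ran from 0 for 7 genes (Pou3f2, Pou3f3, Pou3f4, Emx2, Zic1, Zic4 and Irx1) to 43 for Zic5, followed by 29 each for Otx2 and Zic2, 21 for Meis2, 18 for Neurog1, 14 each for Pou3f1 and Pax2 and 13 for Gsx2. Per Mb of window, ESC MBD3 gave 1.56 and 6.05 peaks in replicates 1 and 2 (1.65 and 4.52 over all genes) and ZFP296 gave 3.51 (2.39). ESC CHD4 gave 5.07 and 23.0 peaks per Mb (9.19 and 22.9), NPC MBD3 0.585 (1.45) and NPC CHD4 6.44 (12.1).

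Otx2, which encodes the homeodomain factor required for forebrain and midbrain formation, stood out among the OTX and EMX genes. It had 4 MBD3 peaks in each ESC replicate, 6 and 12 CHD4 peaks in ESC replicates 1 and 2, 1 ZFP296 peak, 2 peaks in the SIN3A list without spike-in, 0 in the other SIN3A list and 0 in both NPC lists. As many MBD3 peaks as in replicate 1 were found for 0.759% of all genes, and as many as in replicate 2 for 3.89%. For CHD4 these shares were 6.3% and 5.66%. The gene thus carried NuRD peaks in all 4 ESC NuRD lists and none in NPCs.

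The ESC peaks of Otx2 fell into a few places, shown in the plot of peak positions. A site 33.5 kb upstream of the start, merged at chr14:49320474-49321159, carried a peak in 6 lists, with values of 18.2 and 36.3 for MBD3, 13.2 and 19.4 for CHD4, 19.2 for ZFP296 and 10.7 for SIN3A without spike-in. The MBD3 peak of replicate 2 there ranked above 99.7% of its list. A site 49.1 kb upstream was called in the 4 MBD3 and CHD4 lists with values from 8.15 to 15.2. Otx2 has 7 annotated starts, and these distances are from the outermost one. At internal starts, CHD4 peaks were called in both replicates, whereas MBD3 peaks lay at a start of Otx2 in 0 lists.

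**Figure D3:**
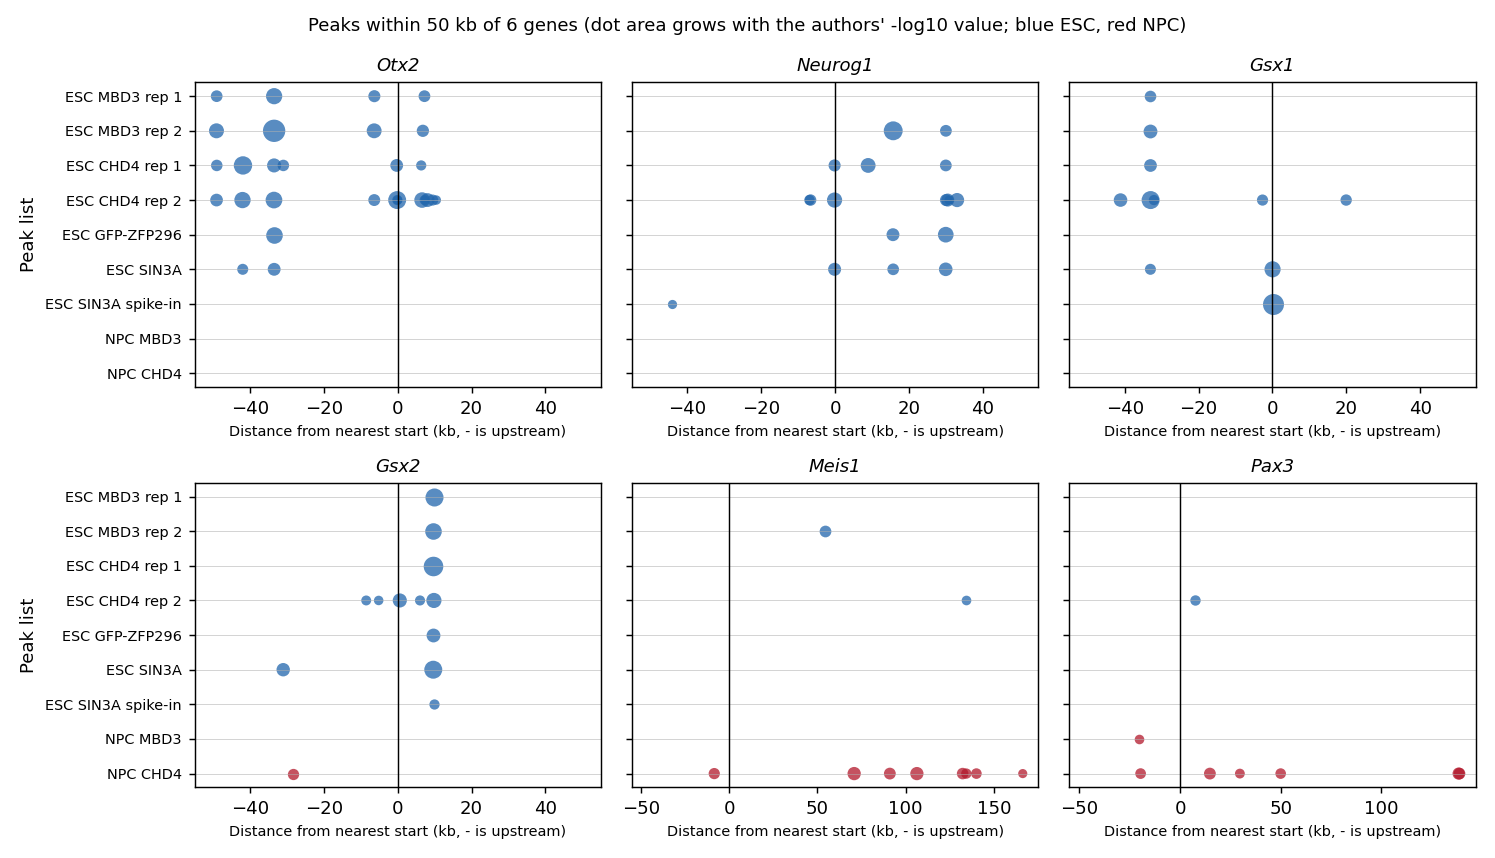
Position of each peak (dots, blue for ESC and red for NPC lists) relative to the nearest start of 6 genes (x axis, kb, negative upstream) in each of the 9 lists (y axis), with dot area growing with the authors' −log10 value. Peaks of Otx2, Neurog1, Gsx1 and Gsx2 stack at the same distance in 5 to 7 ESC lists, whereas those of Meis1 and Pax3 are mostly NPC CHD4 peaks.

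The 6 strings searched in the central 200 bp of peaks besides the telomere unit TTAGGG were the AP-1 string (TGACTCA or TGAGTCA), the octamer ATGCAAAT that POU factors such as POU5F1 bind, the SOX string CCATTGT, the homeodomain string TAATTA and the E-box strings CAGCTG and CATATG, each on both strands. The highest CHD4 peak of ESCs within 1 kb of a start of these genes was at Otx2, in replicate 2 with a value of 22.7. This peak, at chr14:49282597-49282833, lay 168 bp upstream of an internal start. It holds 1 octamer, in reverse orientation, shown in capitals on the plus strand of mm9:

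Otx2 start, ESC CHD4: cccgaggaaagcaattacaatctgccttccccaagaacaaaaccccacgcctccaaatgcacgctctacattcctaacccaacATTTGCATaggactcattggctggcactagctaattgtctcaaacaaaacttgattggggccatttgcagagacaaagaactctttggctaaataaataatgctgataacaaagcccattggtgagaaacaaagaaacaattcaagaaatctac

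Otx1, which acts beside Otx2 in the forebrain, had 1 CHD4 peak of replicate 2 at the start, with a value of 3.36, and 1 SIN3A peak with spike-in, with a value of 7.39. Emx1, a marker of the dorsal telencephalon, carried the highest peak at a start of these genes in the SIN3A list without spike-in, with values of 32.7 there and 28.7 in the spike-in list, above 96.6% and 97.4% of their lists, and 0 MBD3, CHD4 or ZFP296 peaks at the start. Its relative Emx2 had 0 peaks in all 9 lists. The part of the SIN3A peak outside annotated exons, chr6:85137307-85137431 just before the start of Emx1, holds 0 of the searched strings:

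Emx1 start, ESC SIN3A: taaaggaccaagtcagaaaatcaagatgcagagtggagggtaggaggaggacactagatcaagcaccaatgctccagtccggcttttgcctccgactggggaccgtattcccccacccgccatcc

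The ZIC genes split by locus. Zic1 and Zic4, neighbours on chromosome 9, had 0 peaks in all lists, whereas Zic2 and Zic5, neighbours on chromosome 14, had peaks in 6 and 7 of the 7 ESC lists and 0 in NPCs. Zic2 had 3 MBD3 peaks in ESC replicate 2, 3 and 8 CHD4 peaks, 4 ZFP296 peaks and 7 and 4 SIN3A peaks. Zic5 had 1 and 4 MBD3, 8 and 13 CHD4, 5 ZFP296 and 7 and 5 SIN3A peaks. ZFP296 peaks as many as those of Zic5 were found for 0.467% of all genes, and as many as those of Zic2 for 1.18%. Much of this is 1 locus counted for both genes, since their windows overlap.

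At the start of Zic2, a merged site at chr14:122874037-122874527, 323 bp upstream, was called in 5 ESC lists, with values of 7.8 for MBD3 replicate 2, 7.77 and 7.26 for CHD4, and 20.8 and 6.78 for SIN3A without and with spike-in. A neighbouring site 0.87 kb upstream was called in 4 lists and held the highest ZFP296 peak at a start of these genes, with a value of 8.26, above 48.6% of its list. That value is close to the middle of the ZFP296 list, so the start peaks of ZFP296 were not among its strong ones. The peak, at chr14:122873625-122873812, holds 0 of the searched strings:

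Zic2 start, ESC ZFP296: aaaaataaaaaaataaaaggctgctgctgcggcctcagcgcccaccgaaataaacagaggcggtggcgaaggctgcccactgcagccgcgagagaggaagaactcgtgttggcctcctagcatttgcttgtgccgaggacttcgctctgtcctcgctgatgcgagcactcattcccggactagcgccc

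A more distant site, 43.5 kb downstream of the start of Zic5 at chr14:122815296-122816564, carried a peak in 6 ESC lists. Its values were 12.4 and 15.5 for MBD3, 26.2 and 17 for CHD4, 10.3 for ZFP296 and 10.9 for SIN3A with spike-in. The nearest annotated start is that of Gm5089, not that of Zic5.

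Gsx2 and Zic5 were the genes with a peak within 50 kb in all 7 ESC lists. GSX2 and GSX1 specify progenitors of the ventral forebrain. For Gsx2 the 7 lists met at 1 site 9.66 kb downstream of the start, chr5:75480986-75481780, in intergenic sequence, with values of 23.0 and 19.1 for MBD3, 27.4 and 15.6 for CHD4, 12.7 for ZFP296 and 22.8 and 6.07 for SIN3A. The MBD3 peak of replicate 1 ranked above 98.4% and the CHD4 peak of replicate 1 above 98.7% of their lists. The one NPC peak in the window, a CHD4 peak with a value of 7.74, lay 28309 bp upstream and nearest to the start of Chic2.

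Gsx1 had a like site 33.1 kb upstream, chr5:147966954-147967607, called in 5 ESC lists with values of 8.31 and 12.7 for MBD3, 10.5 and 22.9 for CHD4 and 7.33 for SIN3A without spike-in. Its start, in contrast, carried SIN3A peaks alone, with values of 18 and 31.8. Neurog1, the proneural factor of sensory neurons, had 5 ESC lists with a peak at a site 30.0 kb downstream, chr13:56323393-56323726, with values of 8.65 for MBD3 replicate 2, 8.68 and 9.02 for CHD4, 16.9 for ZFP296 and 12.2 for SIN3A without spike-in. Its start was marked by CHD4 (9.27 and 15.7) and by SIN3A without spike-in (11), in a peak with an octamer, a SOX and a homeodomain string.

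Across all lists, overlapping peaks near the 41 genes merged into 177 sites, of which 145 (81.9%) had ESC peaks alone, 28 (15.8%) NPC peaks alone and 4 (2.26%) both. Genome-wide these shares were 67.2%, 26.2% and 6.63% of 62111 sites. Among the sites near the genes, 7 had a peak in at least 5 of the 7 ESC lists: those described above at Otx2, Zic2, Zic5, Gsx1, Gsx2 and Neurog1, and 1 in an intron of Pax7, 64.9 kb downstream of its start. This set was singled out after its values were seen. The octamer was present in the central 200 bp of 4 of the 7 (57.1%), against 4.66% of the 1565 sites of at least 5 ESC lists genome-wide. It was present in 6 of the 149 sites with a peak in at least 1 ESC list (4.03%, against 2.05% genome-wide). Of the 7 strings searched, the octamer alone was counted over merged sites in this way. The numbers near the genes are small, and the sites share lists and, for Zic2 and Zic5, a locus.

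**Figure D4:**
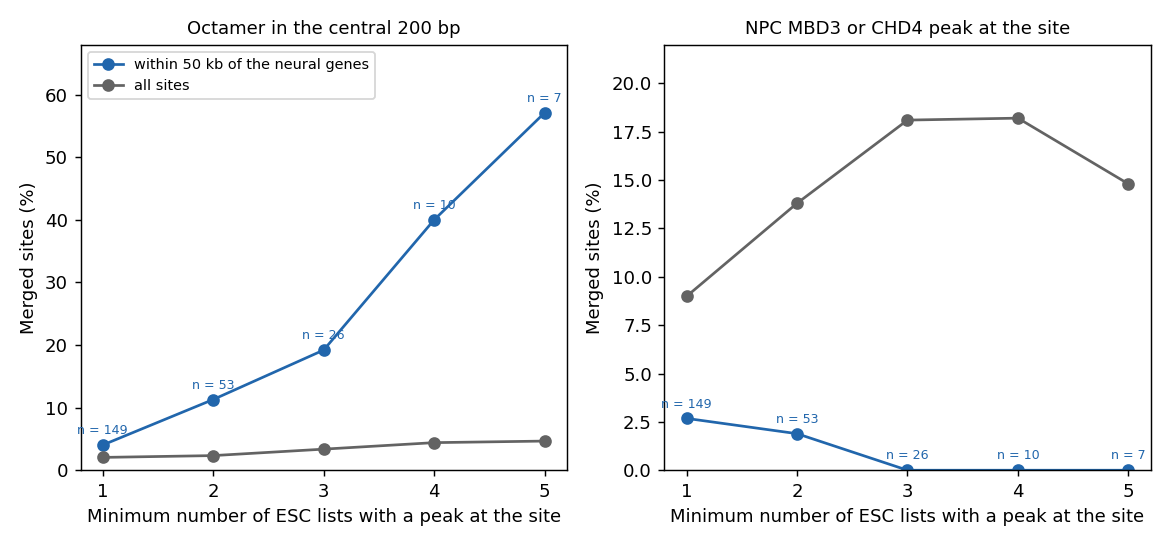
Share of merged sites (%, y axes) that hold the octamer in their central 200 bp (left) or carry an NPC MBD3 or CHD4 peak (right), by the minimum number of ESC lists with a peak at the site (x axis), within 50 kb of the neural genes (blue, n printed) and genome-wide (grey). The blue octamer share goes from 4.03% of 149 sites to 57.1% of 7, and the blue NPC share is 0.0% from 3 lists on. Each point includes the sites of the points to its right, so the points are not separate observations.

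The central 200 bp of the 4 sites with the octamer are shown on the plus strand of mm9. The Otx2 site, which holds a SOX string and the telomere unit in both orientations, is shown with them. Those of Zic2 and Pax7, which also carry peaks of most ESC lists, hold none of the searched strings and are not shown. Capitals mark the searched strings. At Gsx2 the octamer runs straight into an AP-1 string. The windows are chr5:75481193-75481392 (Gsx2), chr5:147967110-147967309 (Gsx1), chr13:56323435-56323634 (Neurog1), chr14:122815652-122815851 (Zic5) and chr14:49320710-49320909 (Otx2).

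Gsx2 +9.66 kb: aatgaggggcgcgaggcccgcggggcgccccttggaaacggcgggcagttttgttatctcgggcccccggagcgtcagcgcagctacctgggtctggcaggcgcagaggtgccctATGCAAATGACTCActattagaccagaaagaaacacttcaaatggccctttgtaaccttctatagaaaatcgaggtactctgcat
Gsx1 −33.1 kb: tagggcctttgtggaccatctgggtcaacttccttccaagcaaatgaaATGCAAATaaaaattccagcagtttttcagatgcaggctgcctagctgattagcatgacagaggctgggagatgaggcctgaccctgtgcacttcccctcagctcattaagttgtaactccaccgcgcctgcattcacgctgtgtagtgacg
Neurog1 +30.0 kb: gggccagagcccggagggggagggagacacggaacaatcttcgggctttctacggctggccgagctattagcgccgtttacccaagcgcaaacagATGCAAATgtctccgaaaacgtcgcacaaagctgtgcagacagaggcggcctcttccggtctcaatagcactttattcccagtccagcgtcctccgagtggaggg
Zic5 +43.5 kb: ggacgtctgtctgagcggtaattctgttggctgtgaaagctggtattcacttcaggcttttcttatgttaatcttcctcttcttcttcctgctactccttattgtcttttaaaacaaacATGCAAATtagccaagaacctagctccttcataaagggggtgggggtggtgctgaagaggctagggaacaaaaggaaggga
Otx2 −33.5 kb: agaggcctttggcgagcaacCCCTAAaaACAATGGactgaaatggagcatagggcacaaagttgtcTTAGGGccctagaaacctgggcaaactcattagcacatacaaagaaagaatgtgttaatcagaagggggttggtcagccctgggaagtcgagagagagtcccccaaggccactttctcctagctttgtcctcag

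Sites present in both replicates of a factor were fewer. MBD3 sites of both ESC replicates lay within 50 kb of 4 genes (Otx2, Zic5, Gsx1 and Gsx2), where 10.1% of all genes had one. They lay at 0 starts, where 0.808% of all genes had one, a share too small to be read from 41 genes. CHD4 sites of both replicates lay within 50 kb of 10 genes (Otx2, Six6, Neurog1, Zic2, Zic5, Nkx6-2, Gsx1, Gsx2, Meis2 and Pax7), against 36.9% of all genes, and at the starts of Otx2, Neurog1, Zic2 and Meis2, against 5.92%. SIN3A sites of both preparations lay within 50 kb of 12 genes, against 53.5%, and at 6 starts (Lmx1a, Emx1, Zic2, Zic5, Gsx1 and Meis2), against 28.9%. So the genes with a site in both MBD3 replicates were each marked by distal sites.

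The overlap of lists near the genes was close to that of the whole list for MBD3 with CHD4 in ESCs, and differed for several other pairs. Of 8 MBD3 peaks of ESC replicate 1, 6 (75%) overlapped a CHD4 peak of replicate 1, against 73.2% of the whole list, and of 28 in replicate 2, 20 (71.4%) overlapped CHD4 of replicate 2, against 72.5%. Of 14 ZFP296 peaks, 10 (71.4%) overlapped CHD4 of replicate 2 (66.1% of the list) and 8 (57.1%) overlapped MBD3 of replicate 2 (49%). Of 42 SIN3A peaks without spike-in, 21 overlapped CHD4 of replicate 2, against 35.2% of that list, and 17 (40.5%) overlapped the other SIN3A list, against 53.3%. Of 30 SIN3A peaks with spike-in, 17 (56.7%) overlapped the list without it, against 77.4%. Of 109 CHD4 peaks of replicate 2, 18 (16.5%) overlapped replicate 1, against 27.7%.

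Meis2, a TALE homeobox gene with 15 annotated starts, was the gene with an MBD3 peak at a start in ESC replicate 1, and it also had 1 in replicate 2, at another of its starts. The replicate 1 peak had a value of 20.8, above 97.5% of its list, and overlapped CHD4 peaks of both replicates, with values of 7.63 and 15.0. Peaks within 50 kb numbered 1 and 3 for MBD3, 1 and 6 for CHD4, 0 for ZFP296, 4 and 5 for SIN3A, and 0 and 1 for MBD3 and CHD4 in NPCs. Of the MBD3 peak, the stretch outside annotated UTRs, chr2:115698699-115698889, holds 0 of the searched strings:

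Meis2 internal start, ESC MBD3: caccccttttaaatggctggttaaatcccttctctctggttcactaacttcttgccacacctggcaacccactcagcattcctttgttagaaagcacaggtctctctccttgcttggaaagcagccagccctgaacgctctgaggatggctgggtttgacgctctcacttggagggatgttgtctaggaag

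The other starts were marked in fewer lists. Nkx2-2, a determinant of the ventral neural tube, had 2 MBD3 peaks (6.58 and 9.04) in ESC replicate 2 and 1 CHD4 peak (5.83) in ESC replicate 2 at its start. The Irx2 start had a CHD4 peak of replicate 2 (8.52), a ZFP296 peak (6.36) and 2 SIN3A peaks with spike-in (5.35 and 6.35), and that of Irx3 had a CHD4 peak of replicate 2 (6.03) and a SIN3A peak without spike-in (6.92). IRX factors divide the neural tube and other tissues into domains. Lmx1a, known for midbrain dopaminergic neurons, had CHD4 of replicate 2 (6.27) and SIN3A of both preparations (11.9 without spike-in, 12.4 and 3.98 with spike-in) at its start.

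Start peaks in 1 list were those of Gsx2 (CHD4 replicate 2, 13.3), Msx1 (CHD4 replicate 2, 8.0), Six6 (SIN3A without spike-in, 10.7), Dlx2 (SIN3A without spike-in, 6.37) and Pax7 (SIN3A with spike-in, 6.48). Pou3f1, a POU factor of the early neural plate and of glia, had CHD4 peaks of replicate 2 at its start (4.0 and 5.13) and a SIN3A peak with spike-in (3.06), of which none ranked above more than 8.89% of its list. Most of its 14 peaks within 50 kb lay more than 35 kb downstream, nearest to the starts of Fhl3, Sf3a3 and Utp11l. The Zic5 start had 2 CHD4 peaks of replicate 2 (6.28 and 6.02) and 2 SIN3A peaks in each preparation (18.6 and 7.48, and 6.07 and 9.79).

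Pax2 acts in the midbrain-hindbrain region, eye and kidney. It had 2 MBD3 and 8 CHD4 peaks in ESC replicate 2 and 0 in replicate 1 of either factor, so these rest on the longer lists. Its 14 peaks also include 2 SIN3A peaks without and 1 with spike-in, and 1 NPC CHD4 peak. The largest group of the 14 lay about 36 kb upstream, at a site of 4 ESC lists. Pax7, a dorsal neural and muscle factor, had 0 and 3 MBD3, 1 and 4 CHD4, 1 ZFP296 and 1 and 1 SIN3A peaks. Lhx2, a LIM homeobox gene of the cortex and eye, had 0 MBD3 peaks but carried the highest SIN3A values around these genes, 153.0 without and 88.5 with spike-in, 65.6 kb downstream of its nearest start. These ranked above 99.9% and 99.7% of their lists.

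In NPCs, CHD4 peaks lay within 50 kb of 14 genes, each of which also had a CHD4 peak of ESC replicate 2 in its window. They were Meis1 (8 peaks), Pax3 (6), Dlx2 (5), Dlx1 (3), Emx1 (2), and with 1 each Pou3f1, Six6, Neurog2, Neurog3, Gsx2, Meis2, Msx1, Msx2 and Pax2. The peaks of Dlx1 are among those of Dlx2, its neighbour. Of the Meis1 peaks, only the one 8.41 kb upstream had the Meis1 start as its nearest, and the others were nearest to Gm16140. Those of Emx1 were nearest to Spr-ps1 and Sfxn5. As many NPC CHD4 peaks as Meis1 were found for 3.48% of all genes, as many as Pax3 for 7.77% and as many as Dlx2 for 11.7%. Meis1 and Pax3, the TALE factor and the dorsal PAX factor, had 1 and 0 MBD3 and 1 and 1 CHD4 peaks within 50 kb in ESC replicate 2 and 0 in replicate 1. Their genes are long, 138529 bp and 95868 bp, and their windows are longer than those of most of the 41 genes.

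All 30 NPC CHD4 peaks near the genes lay outside the 1 kb windows, 25 of them over 10 kb from the nearest start of the genes, with a median distance of 46.3 kb. In ESCs that median was 30.0 kb for CHD4 replicate 1, 9.48 kb for CHD4 replicate 2, 21.4 and 24.1 kb for MBD3, 10.7 kb for ZFP296, and 8.58 kb and 0.82 kb for SIN3A without and with spike-in. The peaks nearest to a neural start in NPCs were those of Dlx2, 2775 and 3095 bp downstream (5.44 and 6.1), of Msx1, 6025 bp upstream (above 59.9% of its list), and of Neurog2, 7623 bp upstream (13.8). Of the 30, 17 had the start of one of the 41 genes as their nearest start.

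The NPC CHD4 peaks overlapped those of ESCs in few cases: 0 of 30 overlapped CHD4 of ESC replicate 1 (6.33% of the whole NPC list) and 4 (13.3%, against 14.7%) that of replicate 2, near Emx1, Neurog2, Neurog3 and Msx2. NPC MBD3 peaks within 50 kb numbered 3: near Pou3f1 (10.8, 51093 bp downstream and nearest to Sf3a3), Dlx2 (6.56, 42489 bp upstream) and Pax3 (5.09, 20307 bp upstream). The one at Dlx2 overlapped an NPC CHD4 peak, or 33.3% of the 3, against 84.9% of the NPC MBD3 list. By gene, MBD3 was near 4 genes in ESCs alone, 3 in NPCs alone and 0 in both, taking sites of both ESC replicates (9.76%, 7.32% and 0.0%, against 7.23%, 12.8% and 2.91% of all genes). For CHD4 these numbers were 7, 11 and 3 (17.1%, 26.8% and 7.32%, against 7.69%, 28.8% and 29.2%). With ESC replicate 2 alone they were 18, 0 and 14 (43.9%, 0.0% and 34.1%, against 18.3%, 8.59% and 49.4%). The share with CHD4 in ESCs alone was thus above that of all genes, and the share with CHD4 in both cell types below it, in both counts, whereas the 11 genes with CHD4 in NPCs alone rest on ESC replicate 1.

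The AP-1 string, which FOS and JUN proteins bind, was in 15 of the 30 NPC CHD4 peaks, against 42.2% of the whole list, and in 2 of 3 NPC MBD3 peaks, against 47.5%. The octamer was in 0 of the 30 and in 0.816% of the list. In ESC CHD4 peaks near the genes, AP-1 was in 1 of 23 (4.35%, against 4.56% of the list) and 2 of 109 (1.83%, against 4.68%) in replicates 1 and 2, and the octamer in 4 (17.4%, against 2.62% of the list) and 4 (3.67%, against 2.41%). The octamer was in 3 of 8 and 4 of 28 ESC MBD3 peaks (37.5% and 14.3%, against 4.82% and 5.0%), in 3 of 14 ZFP296 peaks (21.4%, against 4.66%), and in 5 of 42 and 0 of 30 SIN3A peaks (11.9% and 0.0%, against 1.22% and 0.78%). These peaks are largely those of the shared sites above and are not separate observations. In the genes' own promoters the octamer occurred in 1 of 41 (2.44%) and the AP-1 string in 0, against 1.72% and 4.43% of all promoters.

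The NPC peaks with the highest values of each factor within 50 kb are shown on the plus strand of mm9. The MBD3 peak near Pou3f1 is at chr4:124385856-124386126 (10.8), and the CHD4 peak 46955 bp upstream of Pax2, at chr19:44783434-44783733, had a value of 19.7, above 94.0% of its list. Both hold an AP-1 string, and the CHD4 peak also holds the E-box CAGCTG, a string that proneural bHLH factors bind:

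Pou3f1 +51.1 kb, NPC MBD3: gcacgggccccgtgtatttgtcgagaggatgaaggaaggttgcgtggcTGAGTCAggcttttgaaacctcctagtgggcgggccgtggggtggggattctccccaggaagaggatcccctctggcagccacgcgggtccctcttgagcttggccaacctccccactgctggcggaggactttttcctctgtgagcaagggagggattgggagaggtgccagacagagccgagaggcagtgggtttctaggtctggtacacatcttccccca
Pax2 −47.0 kb, NPC CHD4: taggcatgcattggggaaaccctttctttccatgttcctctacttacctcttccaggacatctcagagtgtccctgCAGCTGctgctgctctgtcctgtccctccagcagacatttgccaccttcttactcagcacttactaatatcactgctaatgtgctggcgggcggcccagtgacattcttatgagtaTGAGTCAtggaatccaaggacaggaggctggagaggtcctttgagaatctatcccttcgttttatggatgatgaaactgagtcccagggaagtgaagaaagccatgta

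The other genes were marked in ESCs through CHD4 of replicate 2 or SIN3A in the main. Nkx2-1, Nkx6-1, Six3 and Lhx5 had peaks in the CHD4 list of ESC replicate 2 and in 0 other lists, with 1, 1, 1 and 5 peaks. Dlx5 and Dlx6 shared 1 SIN3A peak in each preparation and had 0 others. Nkx6-2 had 0 and 1 MBD3, 1 and 2 CHD4 and 1 ZFP296 peaks, of which the MBD3 peak of replicate 2, 3191 bp downstream of the start, had a value of 22.6, above 97.8% of its list. Neurod1, a neuronal differentiation factor, had SIN3A peaks 2274 and 2287 bp downstream of a start (23.2 and 7.61) and MBD3 and CHD4 peaks of replicate 2 next to the neighbouring gene Cerkl.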

How the data were processed

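Peak lists of 9 ChIP-seq samples were analysed, grouped by their titles. Reads had been aligned to mm9 by the authors with BWA, reduced to unique, non-duplicate reads, and used sample by sample for peak calling with MACS2 2.0 relative to input from the matching line. Names of 7 lists state a common normalized read number, those of both SIN3A lists do not, and true depth is unknown. The deposited −log10 value of each peak rests on either a q-value or a p-value (which is not stated), with a threshold of 0.001, or 0.0001 for SIN3A without spike-in. Here, peak midpoints were counted per gene with Python 3.11.15, numpy 2.4.6 and pyfaidx 0.9.0.4 on GENCODE vM1. Overlapping entries of 1 symbol were merged. Overlap means at least 1 bp, and coordinates are 1-based. The counting was tested on planted peaks. No test was run. Named were genes with a start peak, the 8 with the most peaks, those with MBD3 in NPCs or in both ESC replicates, those with 0 peaks, and others chosen after their values were seen. The members and lists were chosen with earlier results of these data known. The alternatives were other windows, peak values, list sizes and backgrounds.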

Additional observations from a re-analysis of the deposited data

How the results depend on the processing

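No paired analysis was possible because the results come from counts in single peak lists and from no test, and the replicate number is shared by lists of different factors only as a number. Of 267 alternative counts, 206 stayed within 1.5 times of the reported count and 61 did not. In both windows the share of the genes stayed below that of all genes in 10 of 10 settings for NPC CHD4 and both SIN3A lists. Within 50 kb it also did so for NPC MBD3 and ESC CHD4 replicate 1. For ESC MBD3 replicate 1 and ESC CHD4 replicate 1 at the start it was higher in 5 settings and lower in 5. For NPC MBD3 at the start the settings cannot decide, since none of them gave a neural gene with a peak. The share of all genes there, from 0.997% to 3.94%, was too small to be read from so few genes. For NPC CHD4 at the start, equal list sizes and a value of at least 10 cannot decide either. They gave 0 genes, against 1.55% and 5.14% of all genes, which is also little to read from 41 genes.

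At the start, from 1 kb upstream to 5 kb downstream gave 5 genes for MBD3 replicate 2 and 1 for NPC CHD4. The outermost start alone gave 0 for MBD3 replicate 1 and 2 for CHD4 replicate 1. A value of at least 10 left 10 genes in any list, with 0 for MBD3 replicate 2 (1.16% of all genes), 1 and 4 for CHD4 (2.5% and 8.66%), 0 for ZFP296 (0.804%) and 5 for SIN3A with spike-in (16.4%). Equal list sizes (2304 peaks) left 6 genes, with 0 for MBD3 replicate 2 (0.992% of all genes), 0 and 1 for CHD4 (1.52% and 1.89%) and 2 in each SIN3A list (9.16% and 9.5%). Among genes with at most 2 other starts in the window ZFP296 gave 1, and among genes of at most 20 kb MBD3 replicate 1 gave 0. Both restrictions were chosen after seeing the data.

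Within 50 kb, a 20 kb window gave 3 genes for MBD3 replicate 1, 0 for NPC MBD3 and 7 for NPC CHD4. A 100 kb window gave 10 for MBD3 replicate 1, 20 for CHD4 replicate 1 and 5 for NPC MBD3. A value of at least 10 gave 9 for MBD3 replicate 2 (22%, against 15.9% of all genes), 17 for CHD4 replicate 2 (41.5%, 47.3%), 1 for NPC MBD3 (2.44%, 6.93%), 9 for NPC CHD4 (22%, 38.7%), 4 for ZFP296 (9.76%, 9.04%) and 8 for SIN3A with spike-in (19.5%, 38.2%). Equal list sizes gave 18 genes in any list, with 9 for MBD3 replicate 2 (22%, 14.5%), 5 and 3 for CHD4 (12.2%, 15.9% and 7.32%, 18.5%), 1 for NPC CHD4 (2.44%, 16.2%) and 6 and 3 for SIN3A (14.6%, 25.1% and 7.32%, 25.5%). CHD4 replicate 2 thus turned from above to below all genes in both settings, and was below them in 3 of 10 settings. CpG-rich promoters left 2 for MBD3 replicate 1 and 6 for NPC CHD4. Leaving out ESC CHD4 replicate 2, also chosen after seeing the data, left 16 genes at the start and 30 within 50 kb. The 7 sites of most ESC lists stayed 7, 4 with the octamer, when at least 4 of the other 6 ESC lists were required. Each of the 7 has peaks of at least 5 ESC lists, so this requirement could not remove any of them and does not check the octamer share.

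Without 1 replicate, the genes with an MBD3 site numbered 1 to 3 at the start and 5 to 15 within 50 kb, and with a CHD4 site 4 to 13 and 10 to 32. Either replicate gave 3 and 15 for MBD3 and 13 and 32 for CHD4. Genes in ESCs alone then numbered 5 to 14 for MBD3 and 7 to 18 for CHD4, in NPCs alone 2 to 3 and 0 to 11, and in both 0 to 1 and 3 to 14. With equal list sizes CHD4 gave 1, 1 and 0, and at 100 kb MBD3 gave 7 in ESCs alone and 1 in both, and CHD4 7 in NPCs alone and 12 in both. Within 20 kb, 1 of 16 NPC CHD4 peaks (6.25%) overlapped CHD4 of ESC replicate 2. The cause of these changes was not tested. NPC lists have no replicate, and peak presence at an unknown depth does not measure binding.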
